A study of Mus musculus with 59 samples.

Results

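The sarcomeric myosin light chains and the kinases that act on them were examined across 3 muscles of mice carrying human melanoma xenografts. Of the 47643 gene symbols with a measured transcript level, 8 were taken by name: the light chains Myl1, Myl2, Myl3, Myl4, Myl6b and Mylpf, and the kinases Mylk2 and Mylk4. All 8 were above 0 in every library and passed the filter on low values in every comparison, and 5 stayed at 1 TPM (transcripts per 1000000, a level normalised for gene length and library total) or more in all 59 libraries.

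Each sarcomeric myosin heavy chain carries an essential light chain, which stiffens the lever arm of the motor, and a regulatory light chain, which can be phosphorylated. Calcium signals activate myosin light chain kinase, which phosphorylates the regulatory chain and raises force at low calcium, an effect known for fast muscle during repeated contraction. Fast and slow fibres use different light chain genes alongside their heavy chains. Myl1 is the fast essential chain, Myl3 the slow and ventricular one, Myl6b another essential chain of slow muscle, and Myl4 the essential chain of the atrium and of embryonic muscle. Mylpf is the fast regulatory chain and Myl2 the slow and ventricular one. Mylk2 encodes the skeletal muscle light chain kinase, and Mylk4 a less studied kinase of the same family.

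All mice were female athymic NCI Ath/nude mice, 4 months old, and every mouse carried a patient-derived melanoma, so there was no tumour-free group. A cachectic melanoma, which causes wasting, was compared with a non-cachectic one, and each melanoma is a single xenograft line. Diaphragm (Dia) groups were non-cachectic mock (n = 9), non-cachectic with recombinant Fibcd1 (rFibcd1, a secreted protein tested against wasting, n = 10), cachectic mock (n = 10) and cachectic with rFibcd1 (n = 10). Tibialis anterior (TA, a fast limb muscle) and soleus (SOL, a slow limb muscle) had 5 libraries for each melanoma. Libraries are named below by the number in their table column, and these numbers do not match the replicate numbers of the labels. Sequencing depth is unknown because TPM does not keep it.

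The slow fibre markers separated the 3 muscles. These 7 genes, Myh7 among them, summed to 33.05 to 77.0 TPM in TA, 1913 to 4046 TPM in diaphragm and 21334 to 38582 TPM in SOL. The 9 fast fibre markers summed to 69664 to 98248 TPM in TA, 29180 to 70118 TPM in diaphragm and 12930 to 37408.5 TPM in SOL. The fast range of the diaphragm overlapped those of both limb muscles. Cachectic SOL library 7 stood apart, since in it Myh4, the heavy chain of the fastest fibres, reached 4989 TPM, while the other 4 cachectic SOL libraries were at most 69.8 TPM. Cachectic TA library 8 also stood apart, with mitochondrially encoded genes at 25.1% of its TPM against 38.9% to 45.6% in the other 4. That share was lower with the cachectic melanoma, at 25.1% to 45.6% against 47.3% to 51.7% in TA and at 24.1% to 34.6% against 38.96% to 44.0% in SOL. In mock diaphragm it was 32.9% to 41.6% against 41.9% to 51.9%, again without overlap, and with rFibcd1 the ranges of 29.8% to 46.4% and 39.3% to 49.0% overlapped. The part of this share in the results below was tested only by leaving the mitochondrial genes out of the total. The heart gene Myl7 was at 0 in every TA and SOL library.

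The 8 genes lie on different chromosomes of GRCm38 (GENCODE M21). Myl1 is at chr1:66924295-66945404, minus strand, and Mylk2 at chr2:152911352-152923068, plus strand. Myl2 is at chr5:122100951-122113472 and Mylpf at chr7:127208890-127214298, both on the plus strand, and Myl2 overlaps Ccdc63 on the other strand. Myl3 is at chr9:110741861-110769798, plus strand, and overlaps Pth1r on the other strand. Myl6b is at chr10:128494157-128498685, minus strand, and its end lies 11 bases from the non-muscle essential chain Myl6 on the same strand, so reads at that junction could be counted to either. Myl4 is at chr11:104550663-104595753, plus strand, and overlaps 4 predicted genes on the other strand. Mylk4 is at chr13:32700834-32783954, minus strand, and overlaps the predicted gene Gm27342 on the other strand. Whether the counting used strand is not given in the sources used here, so reads of overlapping genes may not have been told apart.

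The sequences before the transcription start of a slow gene, a fast gene and a kinase are shown because their levels separated the muscles and because the windows held no annotated exon once trimmed. They come from RefSeq (GRCm38.p6), are written 5′ to 3′ on the strand of the gene, and end at the start site except for Myl3, whose last bases are an exon in GENCODE and were left out. The windows are chr9:110763428-110763645 for Myl3, chr7:127211358-127211607 for Mylpf and chr13:32783965-32784214 for Mylk4. Capitals mark matches on either strand to the E-box (CANNTG, the core bound by MyoD-type factors), the MEF2 site or the CArG box bound by serum response factor.
Myl3: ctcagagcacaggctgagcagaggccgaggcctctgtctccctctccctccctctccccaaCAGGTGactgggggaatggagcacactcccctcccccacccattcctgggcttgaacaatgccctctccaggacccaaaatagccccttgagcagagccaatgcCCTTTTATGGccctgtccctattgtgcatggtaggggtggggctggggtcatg
Mylpf: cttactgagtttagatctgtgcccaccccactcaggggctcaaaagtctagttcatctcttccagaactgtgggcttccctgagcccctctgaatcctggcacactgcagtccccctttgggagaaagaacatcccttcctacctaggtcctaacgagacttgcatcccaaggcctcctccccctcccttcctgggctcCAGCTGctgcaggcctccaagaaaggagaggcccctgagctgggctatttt
Mylk4: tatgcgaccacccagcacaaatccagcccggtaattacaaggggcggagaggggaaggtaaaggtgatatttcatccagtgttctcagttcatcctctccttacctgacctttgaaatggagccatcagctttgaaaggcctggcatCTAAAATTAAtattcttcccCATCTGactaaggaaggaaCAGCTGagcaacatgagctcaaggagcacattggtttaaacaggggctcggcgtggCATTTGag
The Mylk4 window held 3 E-boxes and 1 MEF2 site, the Mylpf window 1 E-box, and the Myl3 window 1 E-box and 1 CArG box. Among all 32851 RefSeq windows of 250 bases, 66.2% held an E-box, 12.2% held 3 or more, 2.92% held a MEF2 site and 1.47% a CArG box. The TATA box, TATAAA on either strand, was in none of the 3 windows and in 12.4% of all windows. The RefSeq start used for Mylpf and Myl3 lies inside the longer GENCODE gene, and no window was listed for Mylk2.

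Fast and slow muscle were compared first in mice with the non-cachectic melanoma. All 8 genes differed between TA and SOL, with Myl1, Mylpf, Mylk2 and Mylk4 higher in TA and Myl2, Myl3, Myl6b and Myl4 higher in SOL. The test (limma on log2(TPM + 1), Benjamini-Hochberg adjustment over all genes) called 69.5% of all genes in this comparison, 5.63% higher in TA and 63.9% lower, beside 4 of 8 members in each direction. The median log2 fold change over all genes was -0.47. With median-ratio scaling that median was -0.02 and 3808 of the 7197 genes called were higher in TA, and all 8 members kept their direction and call.

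The slow chains spanned the widest range. Myl2 was at 2.39, 3.35, 5.48, 12.2 and 12.4 TPM in TA and at 4769, 5423, 5566, 6538 and 7020 TPM in SOL, an 819-fold ratio of means (log2 -9.70 ± 0.32, SE, adjusted p = 1.5e-24). Myl3 was at 29.5, 32.2, 33.7, 38.4 and 54.4 TPM in TA and at 4636 to 6050 TPM in SOL, 138-fold apart (log2 -7.10 ± 0.31, SE, adjusted p = 1.9e-20). The 2 slow genes thus did not fall to the same floor in TA: Myl3 was above Myl2 in every one of the 5 libraries. Myl6b averaged 7.65 ± 0.75 TPM (SD, n = 5) in TA and 588 ± 160 TPM in SOL, a 76.8-fold difference. Myl4 was low in both, at 0.851 to 1.91 TPM in TA and 4.56 to 6.70 TPM in SOL, and its groups did not overlap, as held for all 8 members and for 75.5% of all genes.

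The fast chains differed far less, since SOL held them too. Mylpf averaged 11812 ± 1385 TPM (SD, n = 5) in TA and 2618 ± 512 TPM in SOL, a 4.51-fold difference (log2 2.19 ± 0.21, SE). Myl1 averaged 5085 ± 431 TPM in TA and 1307 ± 166 TPM in SOL, a 3.89-fold difference (log2 1.96 ± 0.17, SE). The kinases were not alike. Mylk4 was at 519 to 942 TPM in TA and at 22.5 to 31.5 TPM in SOL, a 28.0-fold difference, and Mylk2 at 654 to 1157 TPM against 202 to 231 TPM, a 4.12-fold difference. In TA the kinases stood close to each other, with Mylk2 at 1.16 ± 0.089 times Mylk4 (SD, n = 5), whereas the ratio was 7.97 ± 1.13 in SOL.

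**Figure D1:**
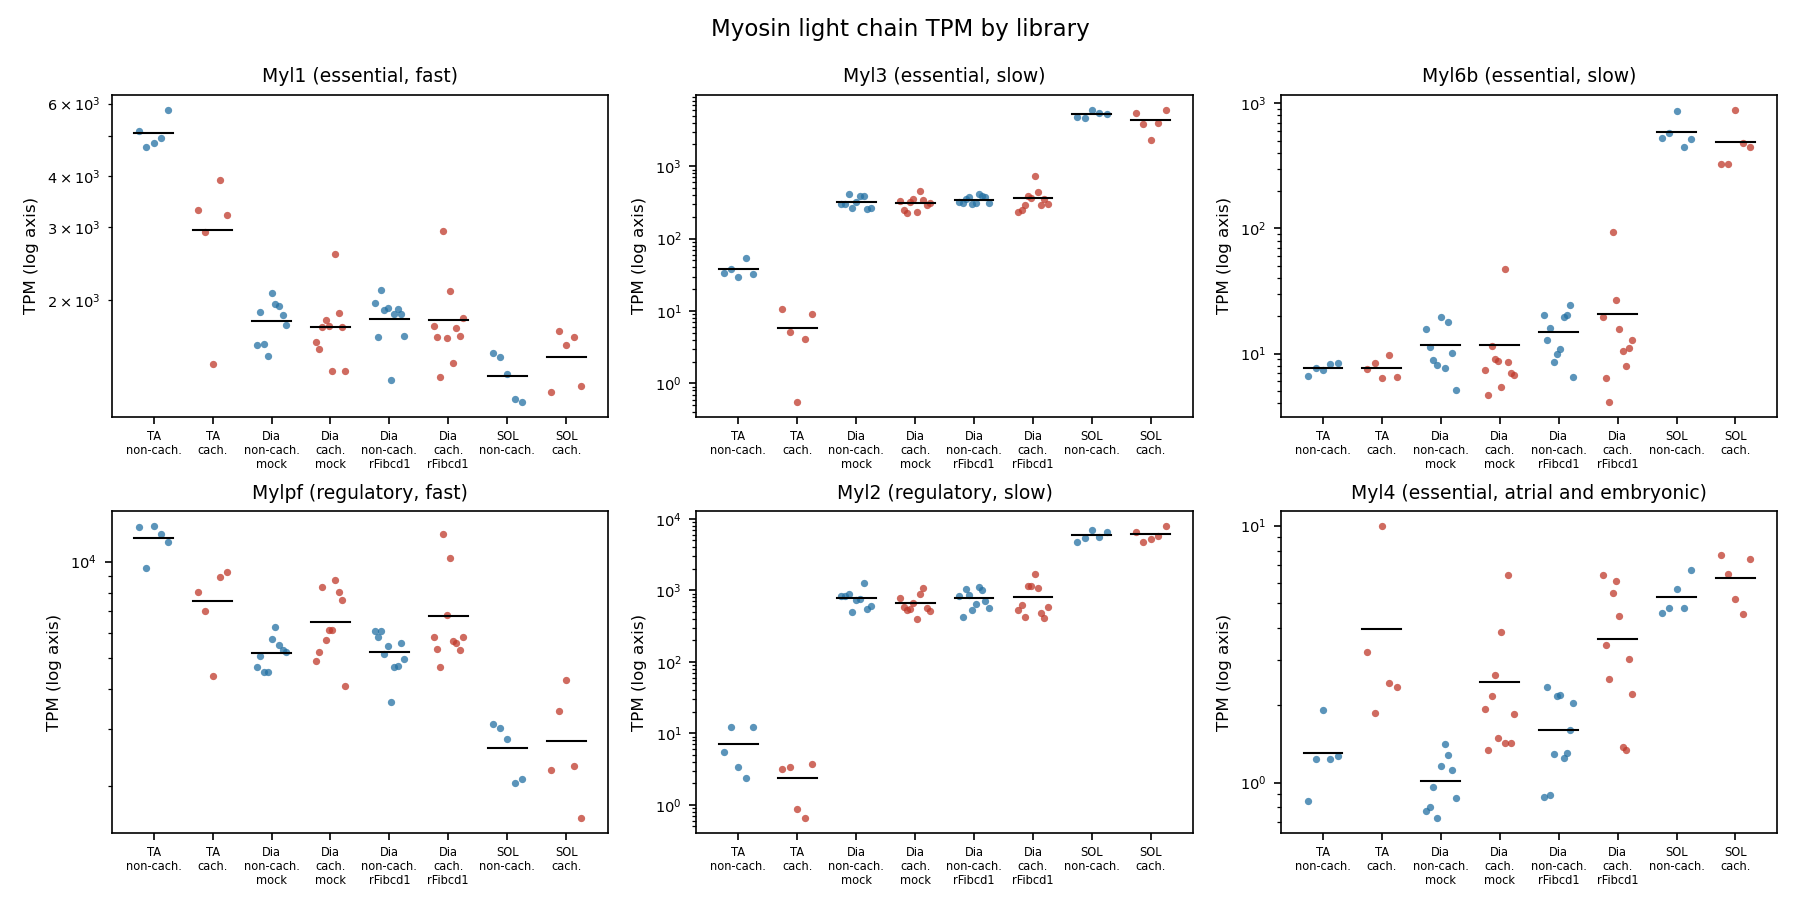
TPM of the 6 light chains (vertical log axes, each with its own range) in each of the 59 libraries, by muscle, melanoma and treatment. Each point is 1 library, blue for the non-cachectic and red for the cachectic melanoma, and the bar is the group mean. Myl2 is at most 12.4 TPM in every TA library and at least 4769 TPM in every SOL library, and Myl3 in TA is lower in all 5 cachectic libraries than in any non-cachectic one.

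The diaphragm lay between the limb muscles for Myl2 and Myl3 and close to SOL for Myl1. In non-cachectic mock mice, Myl2 was at 505, 752 and 1262 TPM (lowest, median and highest of 9 libraries), 108-fold above TA and 7.60-fold below SOL in the ratio of means. Myl3 was at 255, 305 and 409 TPM, 8.53-fold above TA and 16.2-fold below SOL. Against TA, 6 of 8 members were called (72.5% of all genes, 64.0% higher and 8.52% lower), with Myl2 and Myl3 higher and Myl1, Mylpf, Mylk2 and Mylk4 lower. Against SOL, 7 of 8 were called (38.8% of all genes, 16.8% higher and 22.1% lower), but the Dunn test on ranks called only 1 of 8. That test ranked all 39 libraries without rFibcd1 together. Between non-cachectic mock diaphragm and SOL, 6 of 8 members and 29.4% of all genes did not overlap. Both comparisons share the diaphragm libraries.

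Myl6b separated from Myl3 in the diaphragm. Its level was 11.6 ± 5.03 TPM (SD, n = 9), 50.5-fold below SOL, and the difference from TA was not called (log2 0.45 ± 0.32, SE, adjusted p = 0.20). Under median-ratio scaling that last value turned to -0.07, with array weights it was called at 0.56, and with the column number as a block it was called at 0.60 ± 0.23 (adjusted p = 0.023). Myl6b stood at 0.211 ± 0.044 of the TPM of Myl3 in TA, at 0.037 ± 0.015 in the diaphragm and at 0.112 ± 0.023 in SOL. Myl4 was at 1.01 ± 0.24 TPM, below SOL in all 9 libraries (log2 -1.65 ± 0.23, SE) and not called against TA (log2 -0.19 ± 0.23), although with median-ratio scaling that value was -0.54 and called (adjusted p = 0.017).

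Both kinases were lower in the diaphragm than in TA, Mylk2 by 6.08-fold and Mylk4 by 11.5-fold in the ratio of means. Mylk2 was at 94.6, 149 and 185 TPM in the diaphragm, and all 9 libraries were below the 5 of SOL (6 of 8 members and 29.4% of all genes did not overlap), but the difference did not pass (log2 -0.59 ± 0.27, SE, adjusted p = 0.073). It passed at the same size when only the non-cachectic mock diaphragm and non-cachectic SOL groups entered the fit (adjusted p = 0.0052), with array weights (adjusted p = 0.0031) and without cachectic mock diaphragm library 20 (adjusted p = 0.035), in which Mylk2 was at 523 TPM. Mylk4 was at 31.5, 65.8 and 96.1 TPM, 2.44-fold above SOL (log2 1.196 ± 0.46, adjusted p = 0.036), and leaving out diaphragm library 61, 65 or 70, or any 1 of the 5 non-cachectic SOL libraries, raised the adjusted p to between 0.051 and 0.072, and no filter on low values to 0.057. Myl1 passed narrowly against SOL (log2 0.44 ± 0.15, adjusted p = 0.021) and did not without SOL library 64 (0.40) or 65 (0.39), or with the column number as a block (0.38, adjusted p = 0.077).

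As shares, Myl3 with Myl6b made up 0.890% ± 0.226 (SD, n = 5) of the essential light chain TPM in non-cachectic TA, 15.8% ± 2.61 (n = 9) in diaphragm and 81.4% ± 3.01 (n = 5) in SOL. Myl2 made up 0.065% ± 0.050 of the regulatory TPM in TA, 12.9% ± 3.31 in diaphragm and 69.0% ± 6.40 in SOL. In all 3 muscles the mean slow share was thus higher among essential than among regulatory chains. For comparison, Myh7 made up 0.0051% ± 0.0052 of the TPM of 8 sarcomeric heavy chains in TA, 4.39% ± 0.67 in diaphragm and 54.3% ± 6.12 in SOL. The sum of the essential chains was 0.439 ± 0.059 of the sum of the regulatory chains in TA, 0.353 ± 0.014 in diaphragm and 0.841 ± 0.055 in SOL. In bulk tissue, fewer fibres of a type and less RNA per fibre cannot be told apart.

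**Figure D2:**
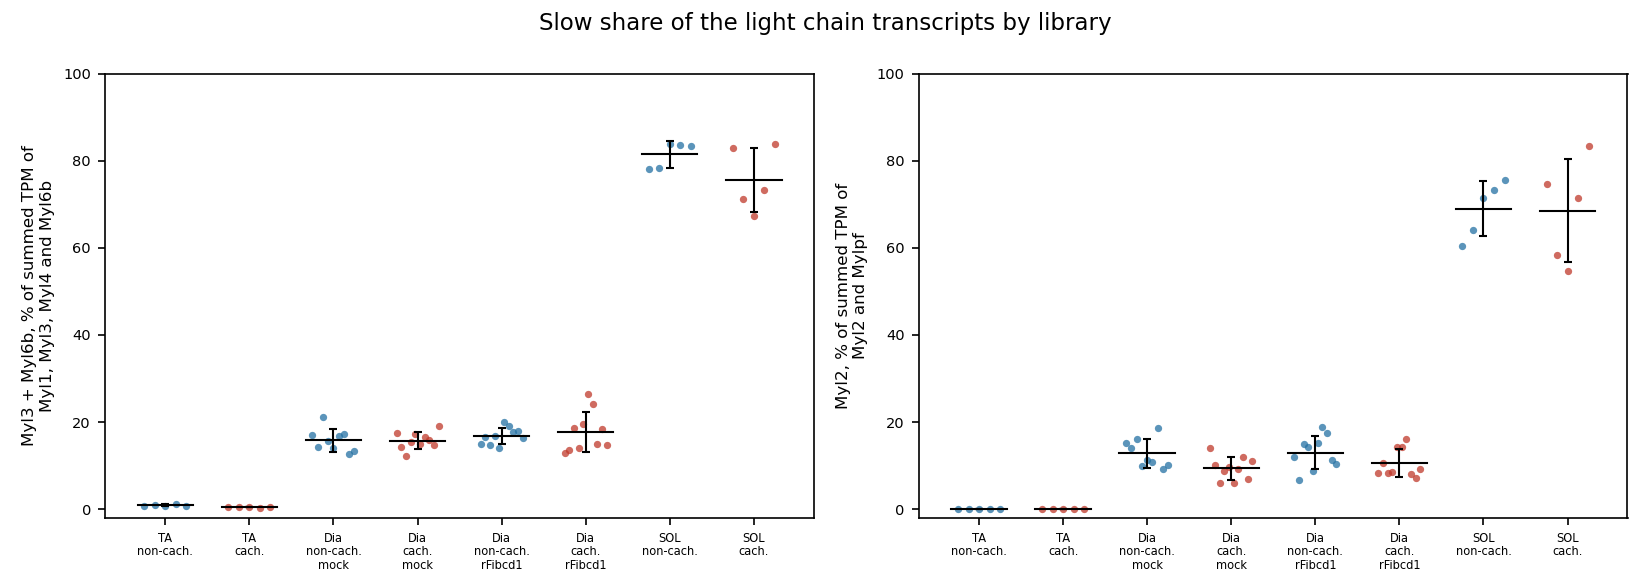
Slow share of the essential (left) and regulatory (right) light chain transcripts, in percent of summed TPM, in each of the 59 libraries. Points are libraries (blue non-cachectic, red cachectic) and bars are the group mean ± SD. TA is at most 1.25%, the diaphragm spans 6.01% to 26.4% over both panels, and SOL is at least 54.8%.

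The cachectic melanoma was then compared with the non-cachectic one. In TA, 6 of 8 members were called, with Myl3, Myl2, Myl1 and Mylpf lower and Myl4 and Mylk2 higher. Across all genes 60.2% were called, 56.4% higher and 3.78% lower, and the median log2 fold change was 0.41. With median-ratio scaling, which brought that median to -0.01, 4476 genes were called and 2043 of them were higher, and 0 of 8 members were higher and 5 lower (Mylk4 with the other 4).

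Myl3, the slow essential chain, fell most. It was at 0.554, 4.07, 5.21, 9.02 and 10.6 TPM in cachectic TA against 29.5, 32.2, 33.7, 38.4 and 54.4 TPM in non-cachectic TA, a 6.396-fold lower mean (log2 -2.74 ± 0.44, SE, adjusted p = 0.0010). All 5 cachectic libraries were below the 5 others, a lack of overlap found for 3 of 8 members and for 51.7% of all genes, and the value without each library in turn stayed called. Myl3 did not follow the slow fibre markers: of those 7 genes, 6 were called higher and 1, Casq2, lower in the same comparison. Their median log2 fold change was 0.90. Over all genes 56.4% were called higher and the median was 0.41. The markers were counted only without median-ratio scaling. Myh7, the slow heavy chain, was called higher at 0.89 ± 0.34, from a level of at most 2.31 TPM in the non-cachectic group. The calls of Myh7 and Casq2 were lost without 7 and 8 of the 10 libraries left out in turn. Myl2, the slow regulatory chain, was at 0.650, 0.888, 3.18, 3.35 and 3.69 TPM against 2.39 to 12.4 TPM (log2 -1.20 ± 0.43, adjusted p = 0.031). The groups overlapped, and the call was lost without cachectic library 8 (-1.02) or 9 (-0.98) or without non-cachectic library 61 (-1.23), 62 (-0.96) or 65 (-0.97), and also with array weights (-0.86), the Dunn test (adjusted p = 0.15) or no filter on low values (adjusted p = 0.069).

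The abundant fast chains fell by less in fold but by more in TPM. Myl1 was at 1400, 2920, 3222, 3302 and 3912 TPM in cachectic and 4717, 4811, 4953, 5146 and 5800 TPM in non-cachectic TA (log2 -0.86 ± 0.23, adjusted p = 0.0095). Mylpf was at 4391, 7011, 8059, 8922 and 9307 TPM against 9543, 11550, 12195, 12843 and 12928 TPM (log2 -0.69 ± 0.19, adjusted p = 0.011). Like Myl3, neither gene overlapped between groups, and both stayed lower without library 8, which was the lowest for each. Together the 6 light chains made up 1.70% ± 0.15 of TPM in non-cachectic and 1.05% ± 0.29 in cachectic TA. Myl6b was not called, with 6.43 to 9.77 TPM against 6.57 to 8.39 TPM (log2 0.00 ± 0.13, SE, adjusted p = 0.98).

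Myl4, the embryonic essential chain, was at 1.86, 2.35, 2.44, 3.23 and 9.98 TPM in cachectic and 0.851 to 1.91 TPM in non-cachectic TA (log2 0.93 ± 0.31, adjusted p = 0.023). The groups overlapped by 1 library of each, without library 8, the highest, the value was 0.59 (adjusted p = 0.0039), and without non-cachectic library 61 the adjusted p was 0.052. With median-ratio scaling it was 0.58 and not called (adjusted p = 0.065), and with no filter the adjusted p was 0.052. Of 8 markers of developing fibres, Myl4 itself among them, 4 were called higher, a share below the 56.4% of all genes, and 1, Actc1, lower, and the calls of Myh8 and Myog among them were lost without 5 and 4 of the 10 libraries. The part of such fibres in the value was not tested.

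**Figure D3:**
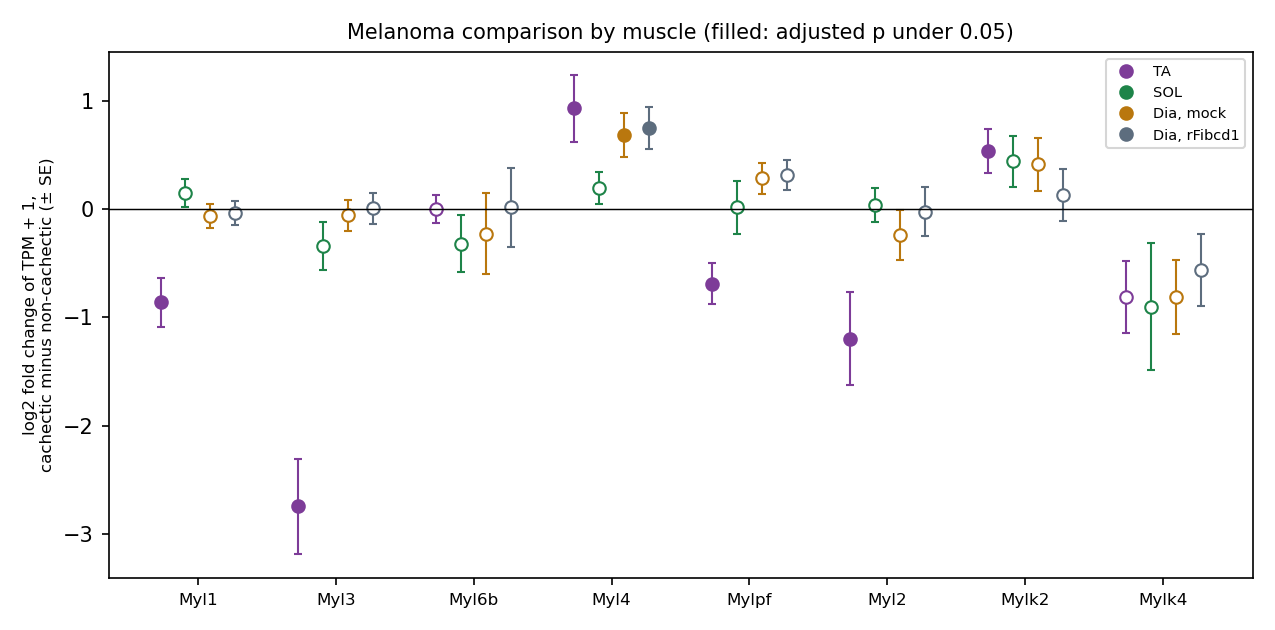
Log2 fold change (cachectic minus non-cachectic, on the scale of TPM + 1) of each of the 8 genes in TA, SOL, mock diaphragm and rFibcd1 diaphragm. Points are limma estimates, bars are SE, and filled points passed an adjusted p of 0.05. Myl3 in TA is at -2.74, Mylk4 is below 0 in all 4 comparisons without a filled point, and Myl4 is filled in TA and in both diaphragm comparisons.

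In cachectic TA, Mylk2 was called higher, and Mylk4 was lower but not called. Mylk2 was at 965, 1022, 1157, 1298 and 2022 TPM against 654, 750.3, 864, 956 and 1157 TPM (log2 0.54 ± 0.21, adjusted p = 0.040). Mylk4 was at 156, 424, 567.6, 594 and 596 TPM against 519, 638, 831, 861 and 942 TPM (log2 -0.81 ± 0.33, adjusted p = 0.051). Both sets of groups overlapped. Mylk2 was called without 4 of the 10 libraries left out in turn and not without 8 (0.36), 10 (0.52), 61 (0.57), 62 (0.44), 63 (0.54) or 65 (0.49), nor with array weights (0.38), the Dunn test (adjusted p = 0.067), no filter (0.080) or 1 fit of all 59 samples (adjusted p = 0.15). Mylk4 was called without 6 (-0.94), 8 (-0.45), 9 (-0.93), 10 (-0.92) or 62 (-0.94), with array weights (-0.54, adjusted p = 0.025) and with the pseudocount of 0.1. The scale mattered for both. With median-ratio scaling, which set the median of all genes to -0.01, Mylk2 was at 0.03 (adjusted p = 0.89) and Mylk4 at -1.31 (adjusted p = 0.043). With mitochondrial genes left out of the total, Mylk2 was at 0.30 and not called (adjusted p = 0.15). Mylk4 was then at -1.05 and called (adjusted p = 0.048). The ratio of Mylk2 to Mylk4 does not depend on such scaling and was not tested. It was 1.04 to 1.26 in the 5 non-cachectic and 1.62 to 13.0 in the 5 cachectic TA libraries, where 13.0 is library 8 and the other 4 were at 1.62 to 2.73.

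In TA and SOL the melanoma cannot be told apart from a state of the libraries marked by the pseudogene Pcna-ps2. All 10 cachectic limb libraries had it at 1 TPM or more and all 10 non-cachectic ones below, whereas diaphragm groups held both states.

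In SOL, 0 of 8 members were called by limma between the melanomas (25.1% of all genes), with 0 below an unadjusted p of 0.05 and 0 called by the Dunn test or with array weights. Myl2, the main regulatory chain of this muscle, was at 4794 to 7982 TPM in cachectic and 4769 to 7020 TPM in non-cachectic SOL (log2 0.04 ± 0.16, SE). Myl3 was at 2306 to 6013 TPM against 4636 to 6050 TPM (log2 -0.34 ± 0.22, adjusted p = 0.28), and 3 of the 5 cachectic libraries were below all the others. Mylk4 was at 4.06, 7.30, 9.85, 18.3 and 82.3 TPM against 22.5, 23.7, 28.3, 29.2 and 31.5 TPM (log2 -0.90 ± 0.58, adjusted p = 0.28). The single high value is library 7, the one with Myh4 at 4989 TPM, and the other 4 were below every non-cachectic library. Without library 7 the log2 fold change was -1.52 (adjusted p = 0.0076). Mylk2 was at 175, 264, 268, 290 and 557 TPM against 202 to 231 TPM (log2 0.44 ± 0.23, adjusted p = 0.19), and without library 9, its lowest, it was called at 0.62 (adjusted p = 0.044).

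**Figure D4:**
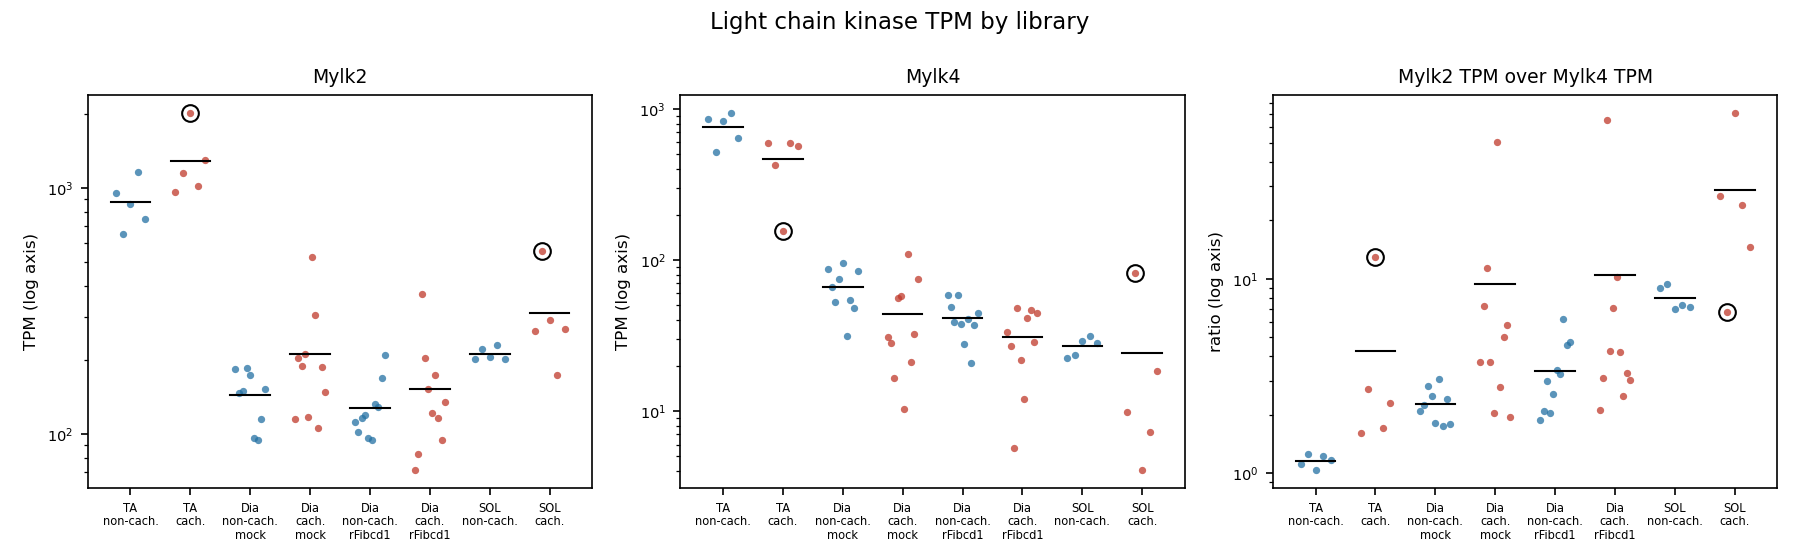
TPM of Mylk2 (left) and Mylk4 (middle) and the ratio of the 2 (right) on log axes in each of the 59 libraries. Points are libraries (blue non-cachectic, red cachectic), bars are group means, and circles mark cachectic TA library 8 and cachectic SOL library 7. In cachectic SOL, 4 libraries of Mylk4 lie below the non-cachectic range of 22.5 to 31.5 TPM and library 7 lies above it at 82.3 TPM.

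In the mock diaphragm, 1 of 8 members was called between the melanomas (33.5% of all genes). Myl4 was at 1.34, 1.89 and 6.41 TPM in cachectic mice (lowest, median and highest of 10) and 0.726, 0.961 and 1.41 TPM in non-cachectic mice (of 9), 2.43-fold higher in the mean (log2 0.69 ± 0.20, SE, adjusted p = 0.0091). Of the 10 cachectic libraries, 9 were above every non-cachectic one. Across all genes 30.9% were higher and 2.67% lower. Of 8 developing fibre markers, Myl4 included, 3 were called higher and Actc1 lower, and of 5 heart markers tested 2, Tnnt2 and Sln, were higher. Library 32, the highest for Myl4, also held the highest Myl7 (13.3 TPM, at most 1.98 in the other mock libraries) and Tnnt2 (24.0 TPM). The part of such cells in the value was not tested. With library state as a term the value was 0.49 (adjusted p = 0.11), and among libraries of the high state it was 0.65 (adjusted p = 0.18). Mylk4 was at 10.4, 31.6 and 110.0 TPM against 31.5, 65.8 and 96.1 TPM (log2 -0.82 ± 0.34, adjusted p = 0.062). It was called with median-ratio scaling (-1.04, adjusted p = 0.037), without mitochondrial genes in the total (-1.06, adjusted p = 0.048) and with array weights (-0.80, adjusted p = 0.0062). Its groups overlapped, and the call was gained without cachectic mock library 9 (-0.89), 10 (-0.89), 22 (-0.995) or 35 (-0.94), without non-cachectic library 66 (-0.94), or without rFibcd1 library 3 or 11 (-0.82 each), which enter only the spread.

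The abundant chains of the diaphragm were not called by limma with equal weights. Mylpf was at 4093 to 8755 TPM in cachectic and 4531 to 6241 TPM in non-cachectic mock mice (log2 0.28 ± 0.15, adjusted p = 0.13), and was called with array weights (0.24, adjusted p = 0.040). Myl1 was at -0.06 ± 0.11 and Myl3 at -0.06 ± 0.15 on the log2 scale. Myl2 was at -0.24 ± 0.23 and Mylk2 at 0.41 ± 0.25. Mylpf and Myl1 parted within libraries: the ratio of Mylpf to Myl1 was 2.72 to 3.20 in the 9 non-cachectic and 3.05 to 4.84 in the 10 cachectic mock libraries, and 2.49 to 3.59 and 3.22 to 4.88 with rFibcd1. These ratios are a description with no test.

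With rFibcd1, 1 of 8 members was called between the melanomas (9.11% of all genes), again Myl4, at 1.34, 3.23 and 6.402 TPM in cachectic and 0.881, 1.45 and 2.36 TPM in non-cachectic mice (log2 0.75 ± 0.20, SE, adjusted p = 0.013). Of 10 cachectic libraries, 7 were above every non-cachectic one. The call was lost with the Dunn test (adjusted p = 0.16), with array weights (0.53), among libraries of the high state (0.62, adjusted p = 0.32) and in a fit of only these 2 groups (adjusted p = 0.053).

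Recombinant Fibcd1 against mock gave 0 of 8 members called by limma in cachectic diaphragm (0.0447% of all genes) and 0 of 8 in non-cachectic diaphragm (0.417%), with 1 and 0 members at an unadjusted p below 0.05, 0 and 0 called by the Dunn test, and 0 and 2 with array weights. These comparisons share their groups with the melanoma comparisons of the diaphragm. Myl4 was the 1 member with such a p in cachectic mice (log2 0.41 ± 0.20, adjusted p = 0.46). The log2 fold changes spanned -0.45 to 0.58 in cachectic and -0.65 to 0.35 in non-cachectic mice. Mylk4 was the lowest in non-cachectic mice, at 20.7, 39.7 and 59.03 TPM with rFibcd1 against 31.5, 65.8 and 96.1 TPM with mock (log2 -0.65 ± 0.34, adjusted p = 0.30). In a fit of only those 2 groups Mylk4 (adjusted p = 0.037) and Myl4 (0.35, adjusted p = 0.043) were called, as they were with array weights (-0.54 and 0.36). Library state differed between these groups, with 3 high and 6 low libraries for mock and 6 and 4 with rFibcd1. Myl4 averaged 1.94 TPM in high and 1.08 TPM in low libraries with rFibcd1, and 1.13 and 0.95 TPM with mock. The difference in melanoma response between rFibcd1 and mock was called by limma for 0 of 8 members (0.0223% of all genes), 0 at an unadjusted p below 0.05 and 0 with array weights. The interaction had log2 values of -0.28 to 0.25, with SE of 0.16 to 0.52.

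The melanoma response was tested between muscles. Between TA and SOL it differed for 3 of 8 members (20.4% of all genes): Myl3 (log2 difference -2.40 ± 0.43, adjusted p = 0.00036), Myl1 (-1.01 ± 0.25, adjusted p = 0.0052) and Myl2 (-1.24 ± 0.45, adjusted p = 0.046). The last was lost without TA library 8, 9, 61, 62 or 65 or SOL library 6, 9, 10, 61, 62, 64 or 65, with adjusted p between 0.053 and 0.12. It was also lost with array weights (-0.90, adjusted p = 0.17), 1 fit of all 59 samples (adjusted p = 0.085), no filter (0.076) and only the groups compared (0.082). Mylpf (-0.70 ± 0.30, adjusted p = 0.083) was called at -0.88 without SOL library 10 and at -1.12 with median-ratio scaling (adjusted p = 0.037). Between mock diaphragm and TA it differed for 3 of 8 (5.04% of all genes): Myl3 (2.69 ± 0.38, adjusted p = 3.1e-05), Mylpf (0.97 ± 0.26, adjusted p = 0.025, and 0.96 ± 0.34 with adjusted p = 0.056 with the column number as a block) and Myl1 (0.80 ± 0.22, adjusted p = 0.027). Without cachectic TA library 8 only Myl3 of these 3 was called, with Mylpf at 0.79 and Myl1 at 0.55. Leaving out non-cachectic TA library 61 or 63 ended the call of Mylpf (0.94 each), as did no filter on low values (adjusted p = 0.055), and library 65 that of Myl1 (0.75). Between diaphragm and SOL it differed for 0 of 8 by limma (2.52% of all genes), with 0 at an unadjusted p below 0.05 and 0 with array weights. For Mylk4 the difference between TA and SOL was 0.09 ± 0.73.

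Other genes that act on light chains were counted from lists, beside the 56.4%, 30.9% and 17.5% of all genes that were higher in cachectic TA, mock diaphragm and SOL (7.54% were lower in SOL). Of 7 genes of the light chain phosphatase and its regulators, 4 were higher and 0 lower in cachectic TA (median log2 0.56, against 0.41 over all genes), 4 and 0 in mock cachectic diaphragm (0.32 against 0.20) and 2 and 0 in cachectic SOL (0.26 against 0.09). Ppp1r14b, an inhibitor protein of that phosphatase, was called in each, at 1.38 ± 0.19, 0.71 ± 0.13 and 0.64 ± 0.19. The call of Ppp1cb, a catalytic subunit, in mock diaphragm was lost without 8 of the 39 libraries left out in turn. In SOL the Ppp1r14b call was lost without 5 of the 10 libraries left out in turn, and that of Ppp1r12c, the other gene called there, without 8. Of 4 genes for ubiquitin ligases of light chains and the sarcomere, 3, 2 and 3 were higher in the same order and 0 were lower, with medians of 1.05, 0.59 and 0.73. Mylip, a ligase named for binding the regulatory light chain, rose by 1.52 ± 0.23, 1.09 ± 0.17 and 1.04 ± 0.19 on the log2 scale. Trim63, the ligase MuRF1, rose by 2.00 ± 0.38 in TA. In mock diaphragm it was at 0.96 ± 0.38, and without library 20, where it stood at 1481 TPM against at most 369 TPM in the other mock libraries, at 0.63 and not called (adjusted p = 0.12). That call was lost without 25 of the 39 diaphragm libraries left out in turn. In SOL it was at 0.93 ± 0.31, and without library 7, at 598 TPM against 147 to 234 TPM in the other cachectic libraries, at 0.58 ± 0.13 (adjusted p = 0.011), but the call was lost without 7 of the other libraries. Trim63 was at 277 to 1376 TPM in cachectic TA, highest in library 8, where Myl1, Myl3, Mylpf and Mylk4 were lowest.

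Of the other light chain kinases, Mylk, the smooth muscle form, rose in TA (0.69 ± 0.19) and mock diaphragm (0.46 ± 0.15) along with 4 and 5 of 7 smooth muscle markers, a list that holds Mylk and Myl9 itself. In TA that share is near the 56.4% of all genes, and in diaphragm it is above the 30.9%. The calls of Myl9 in TA and Myh11 in diaphragm were lost without 5 of 10 and 9 of 39 libraries left out in turn. The part of smooth muscle in Mylk was not tested. Mylk3, the cardiac form, fell in SOL by 1.02 ± 0.21 on the log2 scale, from 4.80 to 6.63 TPM to 1.06 to 4.17 TPM, and was at most 0.35 TPM in TA. Of the 5 tested of 6 other light chains, 4, 2 and 1 were higher in TA, SOL and mock diaphragm, and 0 were lower in each, with 1 of 5 in diaphragm below the 30.9% of all genes. The SOL calls were Myl12a and Myl12b, lost without 3 and 9 of the 10 libraries. With rFibcd1 against mock, 0 genes of these 4 lists were called in either direction by limma.

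The genes most like each member were named by Pearson correlation of log2(TPM + 1), as a description over libraries that share muscle and melanoma. Over all 59 libraries, which span the 3 muscles, Myl2 was closest to Myh7 and Tnnt1 (0.98 each), Myl3 to Homer2 and Myl2 (0.95 each), Mylpf to Tpm1 (0.91) and Tnnc2 (0.88), and Myl1 to Tpm1 and Prkag3 (0.90 each). Mylk4 was closest to Eno3 (0.93), the muscle enolase, Mylk2 to Acvr1b (0.92), and Myl6b to P3h2 and Ndrg4 (0.92 each). Myl4 was closest to Uba2 (0.87), and none of its 5 closest genes was a sarcomere gene.

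Within the 39 diaphragm libraries, after the mean of each group was subtracted, the correlation was 0.81 for the fast pair Myl1 and Mylpf and 0.75 for the slow pair Myl3 and Myl2. Fast and slow chains also varied together, Myl1 with Myl2 (0.50) and Myl3 (0.42), and Mylpf with Myl2 (0.47) and Myl3 (0.39). The essential chain Myl6b went with chains of both types, Myl1 (0.74), Mylpf (0.62), Myl2 (0.52) and Myl3 (0.40). Its closest genes were the non-coding Rian (0.77) and Meg3 (0.76), and the slow troponin Tnni1 (0.67) was among its 5 closest. Mylk2 went with Gadd45a (0.84) and Tbc1d17 (0.83) and not with Mylk4 (-0.18), and Mylk4 was closest to Ky (0.77). Cachectic rFibcd1 library 4 held the highest Myl1 (2935 TPM), Mylpf (12217 TPM) and Myl6b (93.7 TPM) of all diaphragms, and cachectic mock library 20 and rFibcd1 library 3 held the highest Mylk2 (523 and 370 TPM) and the lowest Mylk4 (10.4 and 5.67 TPM).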

How the data were processed

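RNA from diaphragm, tibialis anterior and soleus was sequenced in 59 samples placed in 8 groups by their labels. The deposited table gives TPM for gene symbols, which the authors computed with CLC Genomics Workbench after trimming and alignment to GRCm38 (mm10), as their methods state for diaphragm. The gene annotation is not given in the sources used here. The labels and the study's methods name different kits (stranded mRNA, and RNA v2) and instruments. Every column summed to 1000000, so depth is unknown and no counting interval was given. Genes above 0 numbered 16436 to 19456 per library. The labels call the samples biological replicates without naming mice, so p-values measure the spread between these samples.

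Values were log2(TPM + 1) transformed, which understates changes of low genes. Genes were kept at TPM of at least 1 in as many samples as the smallest group of a fit. Groups were compared with limma 3.58.1 (R 4.3.3, lmFit, contrasts.fit, eBayes with trend), two-sided, with Benjamini-Hochberg adjustment over all genes and calls at an adjusted p under 0.05. The fits held 39 diaphragm libraries, 10 of TA, 10 of SOL, or the 39 libraries without rFibcd1 for comparisons between muscles. The study's Kruskal-Wallis and Dunn tests on log TPM served as an alternative. The method was tested on simulated data with independent libraries and a normal spread. That simulation held no paired libraries and no libraries that stand apart, so it cannot speak to their part in the calls. The other alternatives were another pseudocount (0.1), 2 other filters, median-ratio scaling, a total without mitochondrial genes, array weights, other fits, library state, the column number as a block, and each library left out. Column numbers are shared between muscles. Same-numbered libraries deviated together in all 10 pairs of diaphragm with TA (correlation of deviations from group means over 0.1, lowest 0.133). The same held for all 10 of TA with SOL (lowest 0.196) and for 8 of 10 of diaphragm with SOL (lowest 0.010). Of 210 pairs between muscles with the same melanoma but other numbers, 31 were over 0.1 (median -0.045, highest 0.41). Numbers were taken to pair samples of TA with diaphragm and with SOL. The main fits between muscles left this pairing out and treated the libraries as independent. Only the alternative with the column number as a block used it. Leaving out both libraries that stand apart was chosen after seeing the data.

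The members, gene lists and comparisons were chosen with earlier results of these data known. All 8 members were named in every comparison, with the 5 genes most correlated with each among genes whose mean reached 5 TPM. Promoter sequences are from RefSeq and positions from GENCODE M21. Results for some genes of the lists are not reported here.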

Additional observations from a re-analysis of the deposited data

Results flagged for a closer look

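Single libraries stood far from the rest of their group in 7 of the 64 combinations of a gene and a group (Dixon's criterion at 95%, which chance alone meets in about 1 of 20 groups). Cachectic TA library 8 was lowest for Myl1 (1400 TPM, next 2920) and Mylk4 (156 TPM, next 424) and highest for Myl4 (9.98 TPM, next 3.23). Cachectic mock diaphragm library 22 was highest for Myl1 (2581 TPM, next 1855) and Myl6b (47.2 TPM, next 11.5). Non-cachectic rFibcd1 diaphragm library 56 was lowest for Myl1 (1279 TPM, next 1624) and Mylpf (3655 TPM, next 4701).

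The melanoma response differed between muscles in 6 tests of the difference itself. Between TA and SOL the log2 difference was -1.01 for Myl1, -2.40 for Myl3 and -1.24 for Myl2. Between mock diaphragm and TA it was 0.80 for Myl1, 2.69 for Myl3 and 0.97 for Mylpf.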

How the results depend on the processing

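Of 35 calls of a member in a comparison, 19 kept their direction and side of the threshold in every alternative run that tested the gene. The other 16 were lost under at least 1. Removal of a gene by a filter, as of Myl4 at a mean TPM of at least 5, was not counted as a loss. The number of members called changed as follows, and the cause was not tested unless given. For most runs the share of all genes called is not given here, so these changes are not shown to be particular to the members. Mock diaphragm between melanomas (1 member) gave 3 with array weights, 2 with median-ratio scaling and 2 without mitochondrial genes, and 0 among high-state libraries, 0 with state as a term and 0 at a mean TPM of at least 5, a filter that removes Myl4. With rFibcd1 (1 member) it gave 0 with array weights, the Dunn test, high-state libraries, only the groups compared and the same filter. Treatment in non-cachectic diaphragm (0) gave 2 with array weights and 2 with only the groups compared. Diaphragm against SOL (7) gave 1 with the Dunn test. TA between melanomas (6) gave 3 with no filter. SOL between melanomas (0) gave 1 without library 7, and 1 without both libraries that stand apart, a choice made after seeing the data, under which the response of diaphragm against TA (3) gave 1. Changes within 1.5 times were as follows. TA between melanomas gave 4 with the Dunn test and at a mean TPM of at least 5, 5 with array weights, median-ratio scaling, 1 fit of all 59 samples or without both libraries that stand apart, and 7 with the pseudocount of 0.1. TA against SOL (8) gave 7 with the Dunn test, without Mylk2 (adjusted p = 0.14), and 7 at a mean TPM of at least 5. Diaphragm against TA (6) gave 5 with the Dunn test and 7 with array weights or median-ratio scaling. Diaphragm against SOL gave 8 with array weights or only the groups compared, and 6 with no filter or at a mean TPM of at least 5. The response of TA against SOL (3) gave 4 with median-ratio scaling and 2 with array weights, no filter, 1 fit of all samples, only the groups compared or without both libraries that stand apart, and that of diaphragm against TA gave 2 with no filter. Myl6b in diaphragm against TA turned from 0.45 to -0.074 with median-ratio scaling. Of 56 member comparisons with no direction called, 38 turned sign under at least 1 alternative.

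Leaving out each library gave 1 to 2 members in mock diaphragm, 1 with rFibcd1, 5 to 8 in diaphragm against SOL, 6 against TA, 0 to 1 in SOL, 3 to 7 in TA (3 without library 61, 7 without library 6), 8 in TA against SOL, 1 to 3 in the response of diaphragm against TA, 2 to 3 in that of TA against SOL and 0 in the rest.

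The column number as a replicate block, possible only between muscles, gave 8 members in TA against SOL, 7 in diaphragm against TA, 6 in diaphragm against SOL, and 3, 2 and 0 for the responses of TA against SOL, diaphragm against TA and diaphragm against SOL. It changed 3 calls, of Myl6b in diaphragm against TA, of Mylpf in the response of diaphragm against TA and of Myl1 in diaphragm against SOL, and no other call of a member. TPM keeps no depth, so the precision of low values such as Myl4 is unknown.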

Other observations

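The ratio of Myl3 to the slow heavy chain Myh7, computed from TPM, was 13.9 to 182 in the 5 non-cachectic and 0.687 to 3.56 in the 5 cachectic TA libraries. In SOL it was 0.934 to 1.14 and 0.292 to 0.904. Myh7 in TA was at most 4.83 TPM, so the TA ratios rest on low values. Mylk2 stood at 73.9 ± 12.3 TPM per 1000 TPM of regulatory light chain (SD, n = 5) in non-cachectic and 200 ± 147 in cachectic TA, where library 8 was at 460.4 and the other 4 at 115 to 165, whereas Mylk4 stood at 63.6 ± 9.43 and 59.5 ± 14.5. These ratios were not tested.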
